A study of Rattus norvegicus with 6 samples.

Results

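Amino acids and short peptides from milk and solid food enter the body through carrier proteins of the gut epithelium, and the genes of these carriers were followed in the intestines of rat pups. They were taken by name, as all genes of the solute carrier families Slc1, Slc3, Slc6, Slc7, Slc15, Slc36, Slc38 and Slc43 that have exactly 1 gene symbol on the array, and 62 of the 18166 genes tested met this rule. RNA came from the intestine of Sprague Dawley pups at 3 weeks of age, 3 male pups of high fat diet dams given sitagliptin orally through pregnancy and lactation (HFD-sitagliptin) and 3 male pups of dams on the high fat diet alone (HFD), and each pup had an Affymetrix array of its own. The dams of both groups ate the high fat diet from before mating, and the drug, which blocks the enzyme dipeptidyl peptidase 4, went to the dams. The labels give group, age and tissue, and the paper gives the pups' sex and the diet of the treated dams. The stretch of intestine taken from each pup is not given in the sources used here. Deposited values are normalized log2 expression levels, so a difference of 1 is a doubling. Because each gene has its own probes, a gene is compared between arrays and not with another gene.

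Absorption runs in 2 steps. At the brush border, the microvillus surface that faces the gut lumen, the proton-coupled carrier PepT1 (*Slc15a1*) takes up dipeptides and tripeptides, and sodium-coupled carriers and exchangers take up free amino acids. At the basolateral membrane, which faces the blood, exchangers made of a heavy chain (*Slc3a2*) and a light chain, together with uniporters, release amino acids to the circulation. Cells of every kind use further members of the same families to supply themselves, and nerve terminals and glia use some to clear transmitters.

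HFD-sitagliptin replicate 1 stood apart from the other arrays before any comparison of groups. Over all genes tested it correlated with them at r = 0.926 to 0.940, against r = 0.968 to 0.985 among the other 5 arrays. Of 13 measured small intestinal brush border markers, 12 were lowest in that array, and the median level of this list was 5.27, 10.15 and 10.45 in HFD-sitagliptin replicates 1, 2 and 3 and 10.53 to 10.79 in the HFD arrays. HFD-sitagliptin replicate 2 was the lowest of the other 5 arrays in 6 of the 13 and HFD replicate 1 in 5. Over all 18166 genes they were so in 4005 and 4091. HFD-sitagliptin replicate 2 was low in *Lct*, the lactase gene, which had values of 3.75, 5.74 and 10.07 in HFD-sitagliptin pups and of 9.54, 10.43 and 10.71 in HFD pups. *Slc2a2*, a glucose carrier gene, had values of 4.77, 6.24 and 9.60 in HFD-sitagliptin pups and of 9.99, 9.41 and 10.24 in HFD pups. These 2 genes were lower at the threshold given below with all arrays, where 1.3% of all genes were. They missed it without HFD-sitagliptin replicate 1, with log2 fold changes of -2.32 and -1.96. In that fit *Si*, which missed the threshold with all arrays, was the 1 brush border marker past it. Its log2 fold change was -0.66 there (limma unadjusted p = 0.029), and 0.903% of all genes were lower in that fit. The colonic carbonic anhydrase gene *Car1* was at 12.41 in HFD-sitagliptin replicate 1, against 3.41 to 4.04 elsewhere. *Hoxa13*, also of the colon and hindgut list, was at 6.53 there and at 3.35 to 3.70 elsewhere. Of the 8 measured markers of that list, these 2 were more than 1 unit above all other arrays there, and 1, *Aqp4*, was more than 1 unit below them. Averaged over the 6 arrays, 4 of the 8 were not above background, *Hoxa13* and *Aqp8* among them. *Aqp8* was at 7.48 in HFD-sitagliptin replicate 3 and at 3.44 to 3.97 elsewhere. All 4 measured smooth muscle markers were more than 1 unit higher in HFD-sitagliptin replicate 1 than in any other array. The median of 8 epithelial markers, *Epcam* and *Cdh1* among them, was 9.73, 10.05 and 9.79 in the HFD-sitagliptin arrays and 9.76 to 9.82 in the HFD arrays. Its members went both ways in HFD-sitagliptin replicate 1, with *Krt20* at 10.37 there and at 11.26 to 11.49 elsewhere, and *Cdx1* at 6.96 there and at 5.81 to 6.36 elsewhere. The ileal bile acid binding protein gene *Fabp6* was at 13.16 and 12.62 in the replicate 2 arrays of HFD-sitagliptin and HFD pups and at most at 7.36 elsewhere. Both replicate 2 arrays were above the other 4 in 3 of 4 ileal markers, against 7.45% of all genes. The exception was *Slc51b*, at 10.15 in HFD replicate 1 and 10.14 in HFD replicate 2. All 4 ileal markers were lowest in HFD-sitagliptin replicate 1, as were 21.2% of all genes. Of 7 macrophage markers, 2 were higher in HFD-sitagliptin pups in limma at the threshold given below, *Adgre1* and *Itgam*. Without HFD-sitagliptin replicate 1, only *Itgam* was, and over all genes 0.705% and 0.732% were higher in these fits. The log2 fold change with all arrays was positive in 5 of the 7 and negative in 2, *Lyz2* (-0.87) and *Cd163* (-0.086). *Cd14* was at 8.78 in HFD-sitagliptin replicate 1 and at 4.90 to 6.20 in the others. *Lyz2* was lowest in that array, at 9.79, and at 10.18 to 12.26 in the others. The part of these differences in the results on transporters was not tested. In whole tissue, fewer cells of a type and less RNA per cell cannot be told apart. The counts of transporter genes are therefore given with and without HFD-sitagliptin replicate 1.

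The threshold of the study asks for a 1.5-fold difference together with an unadjusted p under 0.05. By limma, 1 of the 62 transporter genes was past it and 2.01% of all genes tested were. That gene was higher in HFD-sitagliptin pups, as were 0.705% of all genes. In limma 0 transporter genes were lower at this threshold, against 1.3% of all genes. The methods' t-test put 0 of the 62 past it, against 0.87% of all genes, and 1 gene by each test had an unadjusted p under 0.05. After Benjamini-Hochberg adjustment over all genes, the lowest limma adjusted p of a transporter gene was 0.718. The median log2 fold change, HFD-sitagliptin minus HFD, was 0.022 over the 62 genes and 0.010 over all genes. Without HFD-sitagliptin replicate 1, 0 transporter genes were higher and 1 was lower, where 0.732% and 0.903% of all genes were (1.63% in either direction), and the lowest adjusted p was 0.843. The counts of members were thus near what the shares of all genes give.

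The gene that was higher at the threshold was *Slc38a8*, a glutamine carrier. Its values were 4.44, 3.93 and 4.53 in HFD-sitagliptin replicates 1, 2 and 3 and 3.38, 3.90 and 3.74 in HFD replicates 1, 2 and 3. The groups did not overlap, by a margin of HFD-sitagliptin replicate 2 at 3.93 over HFD replicate 2 at 3.90, and the log2 fold change was 0.63 (standard error 0.22, limma adjusted p = 0.718). Over all genes, 11.5% had groups without overlap, 5.97% with HFD-sitagliptin higher and 5.54% with it lower, and among the transporter genes these were 1 and 3 of 62. The mean level of *Slc38a8*, 3.99, lay under 4.44, the 95th percentile of 1185 olfactory receptor genes, which serve here as a measure of background because they are little expressed in intestine. It missed the threshold by the methods' t-test and whenever replicate 1 or replicate 3 of either group was left out, with log2 fold changes from 0.48 to 0.81 over the fits that omit an array (0.56 without HFD-sitagliptin replicate 1). In all, 24 of the 62 transporter genes had a mean level at or under this background level, and 38 were above it.

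The carriers of the brush border and the basolateral membrane differed most between single arrays. The peptide carrier gene *Slc15a1* had values of 3.86, 10.74 and 10.47 in the HFD-sitagliptin arrays and of 9.55, 11.05 and 10.83 in the HFD arrays. The means were 8.36 ± 3.90 in HFD-sitagliptin pups and 10.48 ± 0.81 in HFD pups (SD, n = 3 each). HFD-sitagliptin replicate 1 was 5.69 units below the lowest other array, and at a level under background, while the other 5 arrays lay between 9.55 and 11.05. *Slc6a19*, the main sodium-coupled carrier of neutral amino acids in the small intestine, had values of 4.27, 9.99 and 8.41 in HFD-sitagliptin pups and of 7.42, 9.78 and 9.0 in HFD pups. Here too HFD-sitagliptin replicate 1 was lowest, by 3.15 units, and HFD replicate 1 was the next lowest. *Slc3a1* and *Slc7a9* encode the heavy and the light chain of the exchanger that takes up cystine and basic amino acids. *Slc3a1* had values of 4.09, 9.44 and 9.41 in HFD-sitagliptin pups and of 8.39, 9.45 and 9.34 in HFD pups. *Slc7a9* had values of 3.66, 8.23 and 7.87 in HFD-sitagliptin pups and of 8.23, 8.45 and 8.32 in HFD pups. Both chains of this exchanger were lowest in the same array, by 4.30 and 4.22 units. There *Slc6a19*, *Slc3a1* and *Slc7a9* were, like *Slc15a1*, under the background level of 4.44, so these distances run to values not told from background.

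**Figure D1:**
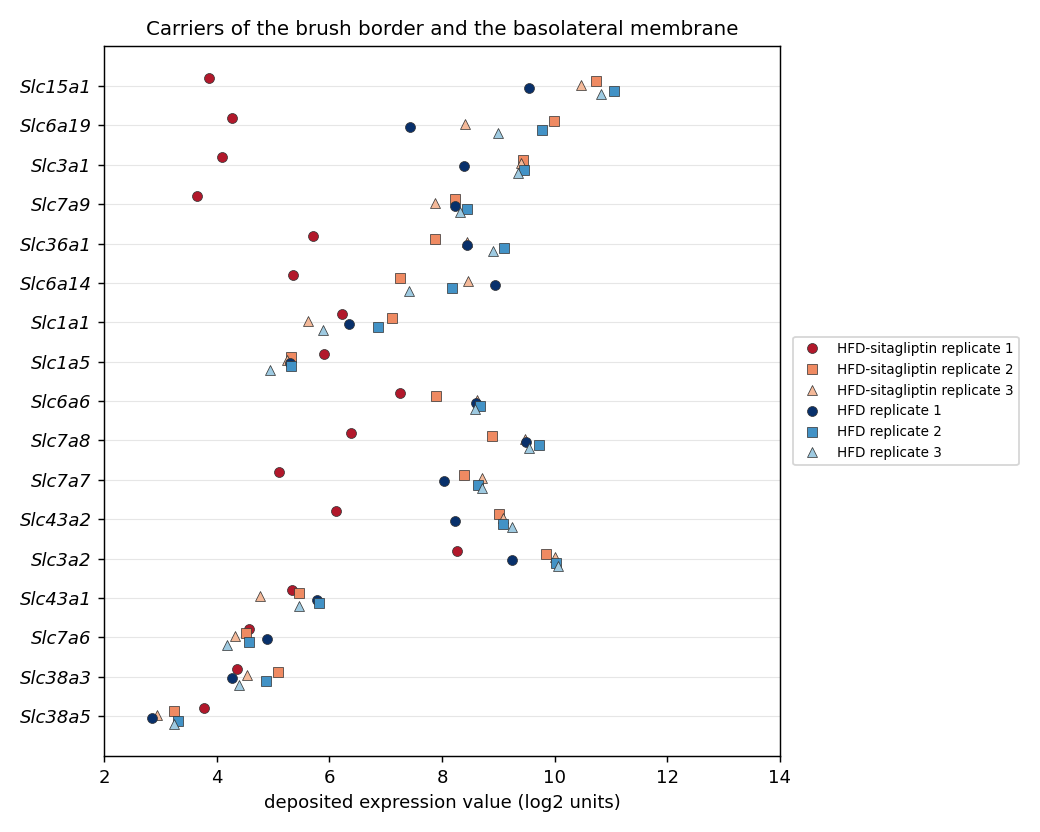
Deposited log2 expression value of 9 brush border genes (top) and 8 basolateral genes (bottom) on each array; each point is 1 pup, red tones are HFD-sitagliptin and blue tones HFD. HFD-sitagliptin replicate 1 lies apart to the left for *Slc15a1* (3.86) down to *Slc6a14* (5.35) and again for *Slc7a8* (6.38), *Slc7a7* (5.11) and *Slc43a2* (6.11), and among the other arrays for *Slc1a1* and *Slc7a6*.

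The promoters of the peptide carrier and of the 3 other brush border genes with the largest distances are shown with that of *Slc38a2*, which moved the other way in the same array. Each runs from 250 bases before the RefSeq start of the gene to 50 bases after it on GRCr8, read in the direction of transcription. Capitals mark the letters of any of 4 motifs found on either strand: TTTAT, bound by CDX factors, GTTAAT, part of an HNF1 site, CAAAGTC, the core of an HNF4 site, and TGATGNA, the core of the composite element of ATF4.
*Slc15a1*, chr15:104949295-104949594, minus strand: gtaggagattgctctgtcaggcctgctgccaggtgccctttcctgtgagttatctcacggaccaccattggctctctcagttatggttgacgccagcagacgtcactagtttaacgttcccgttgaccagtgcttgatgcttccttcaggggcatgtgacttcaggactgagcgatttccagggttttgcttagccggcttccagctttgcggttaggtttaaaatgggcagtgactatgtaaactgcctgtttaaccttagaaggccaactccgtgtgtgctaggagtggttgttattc
*Slc6a19*, chr1:31414494-31414793, plus strand: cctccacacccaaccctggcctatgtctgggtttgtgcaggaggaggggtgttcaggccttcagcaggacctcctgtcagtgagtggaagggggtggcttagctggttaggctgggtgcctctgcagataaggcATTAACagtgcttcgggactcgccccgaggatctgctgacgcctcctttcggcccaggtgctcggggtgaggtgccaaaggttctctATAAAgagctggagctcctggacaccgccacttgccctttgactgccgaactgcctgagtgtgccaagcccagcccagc
*Slc7a9*, chr1:97246632-97246931, plus strand: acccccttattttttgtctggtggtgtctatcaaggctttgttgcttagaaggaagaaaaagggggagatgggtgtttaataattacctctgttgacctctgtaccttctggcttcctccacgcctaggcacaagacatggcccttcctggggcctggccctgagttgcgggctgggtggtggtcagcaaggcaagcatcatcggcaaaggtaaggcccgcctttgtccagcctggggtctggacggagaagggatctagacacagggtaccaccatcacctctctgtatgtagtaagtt
*Slc3a1*, chr6:15394700-15394999, minus strand: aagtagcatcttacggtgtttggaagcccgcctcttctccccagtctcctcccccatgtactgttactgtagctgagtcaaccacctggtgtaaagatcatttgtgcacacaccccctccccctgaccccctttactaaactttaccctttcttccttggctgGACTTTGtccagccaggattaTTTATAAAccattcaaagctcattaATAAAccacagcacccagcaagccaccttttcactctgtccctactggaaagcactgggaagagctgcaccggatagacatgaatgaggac
*Slc38a2*, chr7:129742570-129742869, minus strand: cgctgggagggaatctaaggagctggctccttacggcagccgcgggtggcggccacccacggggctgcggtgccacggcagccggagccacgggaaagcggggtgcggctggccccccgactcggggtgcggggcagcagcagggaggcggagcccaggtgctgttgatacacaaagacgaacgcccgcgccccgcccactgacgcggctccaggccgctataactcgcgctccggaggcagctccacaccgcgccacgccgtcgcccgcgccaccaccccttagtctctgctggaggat
The *Slc3a1* window holds TTTAT 3 times, counting its reverse complement, 2 of these overlapping by 2 bases, and CAAAGTC 1 time, and the *Slc6a19* window holds TTTAT and GTTAAT 1 time each, both as reverse complements. None of the 4 motifs is present in the windows of *Slc15a1*, *Slc7a9* and *Slc38a2*. The windows of the 4 brush border genes hold 3 to 9 CG dinucleotides, against 34 in the *Slc38a2* window and a median of 7 over all promoters. Over all 33469 promoters of this length, TTTAT is present in 42.5%, GTTAAT in 7.45%, CAAAGTC in 4.61% and TGATGNA in 12.1%. Of the 47 transporter genes with a promoter in the table, 18, 4, 1 and 6 held these motifs. Letters in a window are a description and show no binding.

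In 3 other brush border carriers, *Slc36a1*, *Slc6a14* and *Slc6a6*, HFD-sitagliptin replicates 1 and 2 were the lowest arrays of the 6, the pair that was also low in *Lct* and *Slc2a2*. The same pair was lowest in the basolateral *Slc7a8*, in *Slc7a1* of cell supply and in *Slc38a6* and *Slc38a9* of the other genes. This pattern was picked out after the values were seen, and its share over all genes was not counted. *Slc36a1* encodes a proton-coupled carrier of glycine, proline and other small amino acids that is also found on lysosomes. Its values were 5.71, 7.87 and 8.43 in HFD-sitagliptin replicates 1, 2 and 3 and 8.45, 9.10 and 8.91 in HFD replicates 1, 2 and 3. All HFD-sitagliptin arrays were below all HFD arrays, the nearest being HFD-sitagliptin replicate 3 at 8.43 and HFD replicate 1 at 8.45. With all arrays the log2 fold change was -1.48 (standard error 0.68, limma adjusted p = 0.718, unadjusted p = 0.069), which does not pass the threshold. Without HFD-sitagliptin replicate 1 it was -0.67 (standard error 0.27, unadjusted p = 0.0498), and this was the transporter gene counted as lower above. With the replicate number as a block, *Slc36a1* was also past the threshold (unadjusted p = 0.0228), where 2.62% of all genes were. *Slc6a14*, a carrier of broad range for neutral and basic amino acids, had values of 5.35, 7.25 and 8.47 in HFD-sitagliptin pups and of 8.95, 8.18 and 7.41 in HFD pups. *Slc6a6*, the taurine carrier, had values of 7.25, 7.90 and 8.62 in HFD-sitagliptin pups and of 8.61, 8.68 and 8.59 in HFD pups. Both overlapped between the groups. The log2 fold change of *Slc6a14* was -1.16 with all arrays and -0.32 when HFD-sitagliptin replicate 1 was omitted, and that of *Slc6a6* was -0.70 and -0.36. Leaving out HFD-sitagliptin replicate 3 put *Slc36a1*, *Slc6a14*, *Slc6a6* and *Slc7a8* past the threshold as lower, with log2 fold changes of -2.03, -1.88, -1.05 and -1.95, where 2.99% of all genes were lower. The remaining brush border genes did not share the pattern. *Slc1a1*, the carrier of glutamate and aspartate, had values of 6.23, 7.11 and 5.62 in HFD-sitagliptin pups and of 6.35, 6.86 and 5.89 in HFD pups, with a log2 fold change of -0.044 (standard error 0.42). *Slc1a5*, a glutamine exchanger of many growing cells, was highest in HFD-sitagliptin replicate 1, at 5.90, and had a value of 4.95 to 5.32 in the other arrays.

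Of the 8 basolateral genes, 3 were more than 2 units lower in HFD-sitagliptin replicate 1 than in any other array. The heavy chain gene *Slc3a2* had values of 8.27, 9.85 and 9.9995 in HFD-sitagliptin pups and of 9.25, 10.02 and 10.06 in HFD pups, which puts that array 0.98 units below the lowest other array. *Slc7a7*, the light chain that exports basic amino acids, had values of 5.11, 8.39 and 8.70 in HFD-sitagliptin pups and of 8.03, 8.64 and 8.71 in HFD pups. *Slc7a8*, the light chain for neutral amino acids, had values of 6.38, 8.89 and 9.48 in HFD-sitagliptin pups and of 9.50, 9.72 and 9.55 in HFD pups. That array was lowest by 2.92 units in *Slc7a7* and by 2.51 units in *Slc7a8*. The groups did not overlap in *Slc7a8*, with HFD-sitagliptin replicate 3 at 9.48 and HFD replicate 1 at 9.50, and the fitted difference was -1.33 over all arrays (standard error 0.76) and -0.40 without HFD-sitagliptin replicate 1 (standard error 0.205). *Slc43a2*, a uniporter for branched chain and aromatic amino acids, had values of 6.11, 9.01 and 9.09 in HFD-sitagliptin pups and of 8.23, 9.08 and 9.25 in HFD pups. HFD replicate 1 was the lowest of the other 5 arrays in *Slc15a1*, *Slc6a19*, *Slc3a1*, *Slc3a2*, *Slc7a7* and *Slc43a2*, named after their values were seen, and over all transporter genes it was in 29 of 62, where it was for 22.5% of all genes. It was the highest array of the 6 in *Slc6a14*. *Slc43a1*, a uniporter related to *Slc43a2*, had values of 5.33, 5.45 and 4.77 in HFD-sitagliptin pups and of 5.78, 5.81 and 5.45 in HFD pups. The fitted difference was -0.50 over all arrays (standard error 0.215, limma adjusted p = 0.718) and -0.57 without that array (standard error 0.24). It was under the fold threshold in both fits and passed both criteria at -0.63 when HFD-sitagliptin replicate 2 was left out and at -0.61 when HFD replicate 3 was. *Slc7a6*, *Slc38a3* and *Slc38a5*, which move basic amino acids and glutamine, had log2 fold changes of -0.074, 0.15 and 0.18, and *Slc38a5* was not above background.

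Over all 62 genes, 10 were lower by more than 1 unit in HFD-sitagliptin replicate 1 than in any other array, 16.1% of the members, where 2.11% of all genes tested were. For a distance of more than 2 units the share was 14.5%, or 9 genes, against 0.76% of all genes. These 9 were *Slc15a1*, *Slc3a1*, *Slc7a9*, *Slc6a19* and *Slc36a1* of the brush border, *Slc7a7*, *Slc7a8* and *Slc43a2* of the basolateral membrane and the serotonin carrier gene *Slc6a4*. The only transporter gene more than 1 unit above all other arrays there was *Slc38a2*, where 1.8% of all genes tested were. That array was the lowest in 19 of the 62 genes and the highest in 13, where it was lowest for 21.2% and highest for 25.9% of all genes, and no transporter gene was more than 2 units above the others, as 0.374% of all genes were. In the other 30 it lay within the range of the other 5 arrays, which held for 1 of 9 brush border genes, 3 of 8 basolateral genes, 3 of 7 genes of cell supply, 2 of 4 peptide and histidine carriers, 8 of 14 transmitter carriers and 13 of 20 others.

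**Figure D2:**
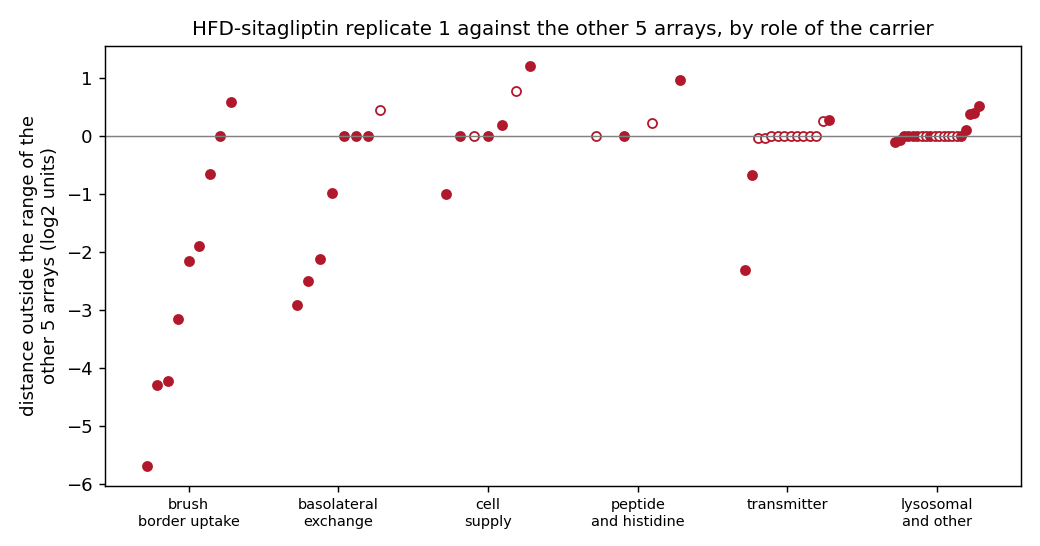
Distance of HFD-sitagliptin replicate 1 outside the range of the other 5 arrays, in log2 units, for each of the 62 transporter genes by role; each point is 1 gene, 0 means within the range, and open points are genes not above background. Points below -2 are found among brush border genes (5 of 9), basolateral genes (3 of 8) and transmitter carriers (1 of 14), and the highest point is *Slc38a2* at 1.21.

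Genes that supply cells with amino acids were nearer to each other across arrays, with a few exceptions. *Slc38a2*, a sodium-coupled carrier of glutamine and alanine that cells raise when amino acids are short, had values of 9.64, 8.12 and 7.99 in HFD-sitagliptin pups and of 8.44, 8.04 and 7.82 in HFD pups. It was 1.21 units above the other arrays in HFD-sitagliptin replicate 1, and the fitted difference was 0.49 over all arrays (standard error 0.45) and -0.043 without that array (standard error 0.21). *Slc7a1*, the general carrier of arginine and lysine, had values of 6.0, 7.0 and 7.59 in HFD-sitagliptin pups and of 7.92, 7.15 and 7.30 in HFD pups. HFD-sitagliptin replicate 1 was thus the lowest array for *Slc7a1* and the highest for *Slc38a2*. *Slc7a5*, a light chain that brings large neutral amino acids into growing cells, lay between 6.20 and 6.55 on all 6 arrays, with a log2 fold change of 0.034 (standard error 0.14). *Slc38a1*, a glutamine carrier, lay between 8.06 and 8.68 and differed by -0.16 (standard error 0.19). *Slc1a4*, an exchanger of serine and alanine, had a log2 fold change of -0.0073, and *Slc7a11*, the cystine and glutamate exchanger, and *Slc38a4* were not above background.

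Of the 4 peptide and histidine carriers besides *Slc15a1*, 2 were above background. *Slc15a4*, a carrier of lysosomes, had values of 7.11, 6.07 and 6.11 in HFD-sitagliptin pups and of 6.15, 5.47 and 5.99 in HFD pups. The log2 fold change was 0.56 with all arrays (standard error 0.33) and 0.22 without HFD-sitagliptin replicate 1 (standard error 0.22). The related *Slc15a3*, of lysosomes in immune cells, differed by 0.20 (standard error 0.155) and by 0.28 once that array was omitted, and *Slc15a2* and *Slc15a5* were not above background. None of these 4 genes was past the threshold in limma or in the methods' t-test.

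**Figure D3:**
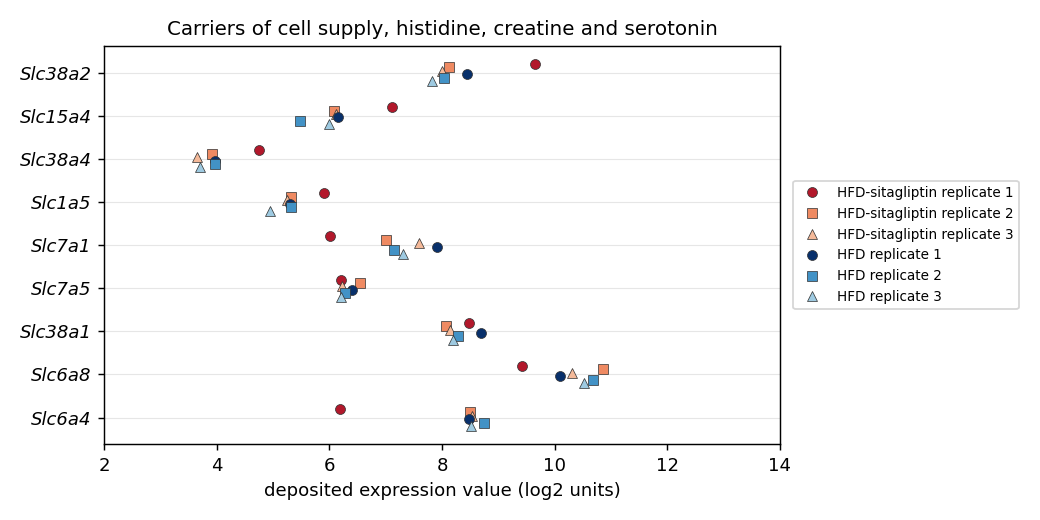
Deposited log2 expression value of carriers of cell supply, histidine, creatine and serotonin and of *Slc1a5* on each array; each point is 1 pup, red tones are HFD-sitagliptin and blue tones HFD. HFD-sitagliptin replicate 1 is the highest array for *Slc38a2* (9.64) and *Slc15a4* (7.11) and the lowest for *Slc7a1* (6.0), *Slc6a8* (9.42) and *Slc6a4* (6.18).

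Among 14 transmitter carriers and their relatives, 3 were above background. *Slc6a4*, the serotonin carrier, had values of 6.18, 8.49 and 8.53 in HFD-sitagliptin pups and of 8.49, 8.75 and 8.52 in HFD pups. The 5 arrays other than HFD-sitagliptin replicate 1 lay within 0.27 units, and that array was 2.31 units below them. *Slc6a8*, the creatine carrier, had values of 9.42, 10.86 and 10.31 in HFD-sitagliptin pups and of 10.09, 10.67 and 10.52 in HFD pups. Once that array was omitted, *Slc6a4* differed by -0.077 (standard error 0.14) and *Slc6a8* by 0.16 (standard error 0.25). *Slc6a9*, the glycine carrier of glia, differed by 0.17 (standard error 0.235). The carriers of noradrenaline (*Slc6a2*), dopamine (*Slc6a3*), glycine at nerve terminals (*Slc6a5*), proline (*Slc6a7*) and GABA (*Slc6a11* and *Slc6a13*) were not above background, nor were *Slc6a15*, *Slc1a2*, *Slc1a3*, *Slc1a6* and *Slc7a10*. Of all transporter genes, 7 had the same value on 3 or 4 arrays, *Slc1a2*, *Slc1a3*, *Slc6a5*, *Slc6a7*, *Slc6a18*, *Slc7a11* and *Slc15a2*, and none of these was above background.

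The other 20 genes comprise lysosomal carriers and carriers of other organs or of unknown role. *Slc38a9*, a lysosomal carrier that reports arginine to the growth regulator mTORC1, had values of 6.02, 6.03 and 6.06 in HFD-sitagliptin pups and of 6.37, 6.22 and 6.18 in HFD pups. The groups did not overlap, and the log2 fold change was -0.22 with all arrays (standard error 0.11, limma adjusted p = 0.718) and -0.21 without HFD-sitagliptin replicate 1 (standard error 0.12), under the fold threshold. It was the transporter gene with an unadjusted p under 0.05 by the methods' t-test (unadjusted p = 0.0208). *Slc7a15*, a light chain gene of the Slc7 family, had values of 4.23, 6.50 and 4.39 in HFD-sitagliptin pups and of 3.93, 5.15 and 4.12 in HFD pups. Both replicate 2 arrays were above the other 4, and the log2 fold change of 0.64 (standard error 0.66) became 1.04 once HFD-sitagliptin replicate 1 was omitted and -0.093 once HFD-sitagliptin replicate 2 was. *Slc38a7* and *Slc36a4*, lysosomal carriers of glutamine and of proline and tryptophan, had log2 fold changes of -0.11 and -0.0074, and *Slc38a10* and *Slc43a3*, a carrier of purine bases, had 0.0090 and -0.12. *Slc1a7*, *Slc6a21*, *Slc7a4*, *Slc7a14*, *Slc38a6* and *Slc38a11* lay between -0.15 and 0.26. *Slc6a18*, *Slc7a2*, *Slc7a3*, *Slc7a12*, *Slc7a13*, *Slc36a2* and *Slc36a3* were not above background, and neither was *Slc38a8*. *Slc7a12* had values of 3.11, 4.0 and 3.22 in HFD-sitagliptin pups and of 3.38, 2.30 and 2.85 in HFD pups, with a difference of 0.60 over all arrays and 0.77 once HFD-sitagliptin replicate 1 was omitted, and it passed the threshold when HFD replicate 1 was left out (0.87).

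In 9 of the 62 genes both replicate 2 arrays, the pair high in *Fabp6*, were above the other 4, 14.5% of the members against 7.45% of all genes tested. They were *Slc1a1*, *Slc3a1*, *Slc6a8*, *Slc6a13*, *Slc6a19*, *Slc7a10*, *Slc7a15*, *Slc38a3* and *Slc43a3*, named here after their values were seen. *Slc1a1* was at 7.11 and 6.86 in the replicate 2 arrays of HFD-sitagliptin and HFD pups and at most at 6.35 elsewhere, *Slc38a3* was at 5.09 and 4.87 and at most at 4.53 elsewhere, and *Slc3a1* was at 9.44 and 9.45 and at 9.41 in the next array. The 2 arrays belong to different groups.

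When HFD-sitagliptin replicate 1 was left out, most of the large differences between the groups were no longer seen. With all arrays, 12 transporter genes were lower by a fold of at least 1.5 whatever their p, where 3.97% of all genes were, and 3 were higher, where 2.16% were. Without that array, 1 was lower and 2, *Slc7a15* and *Slc7a12*, were higher, where 2% and 1.58% of all genes were. The log2 fold change of *Slc15a1* was -2.12 with all arrays (standard error 1.81, limma adjusted p = 0.744) and 0.13 without HFD-sitagliptin replicate 1 (standard error 0.47). *Slc3a1* changed sign likewise, with -1.42 (standard error 1.43) and 0.36 (standard error 0.34), and so did *Slc6a19*, with -1.18 (standard error 1.45) and 0.47 (standard error 0.80). *Slc7a7* and *Slc43a2* had 0.085 and 0.20 without that array. *Slc7a9* kept its sign, with -1.74 (standard error 1.16) and -0.28 (standard error 0.16). The median log2 fold change of the 9 brush border genes was -1.18 over all arrays and 0.0034 once HFD-sitagliptin replicate 1 was omitted, and that of the 8 basolateral genes was -0.45 and 0.019. The 12 lower genes comprise *Slc36a1*, *Slc6a4*, *Slc6a6*, *Slc6a14*, *Slc7a1* and *Slc7a8* beside these 6, and only *Slc36a1* among them stayed past the fold without that array.

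**Figure D4:**
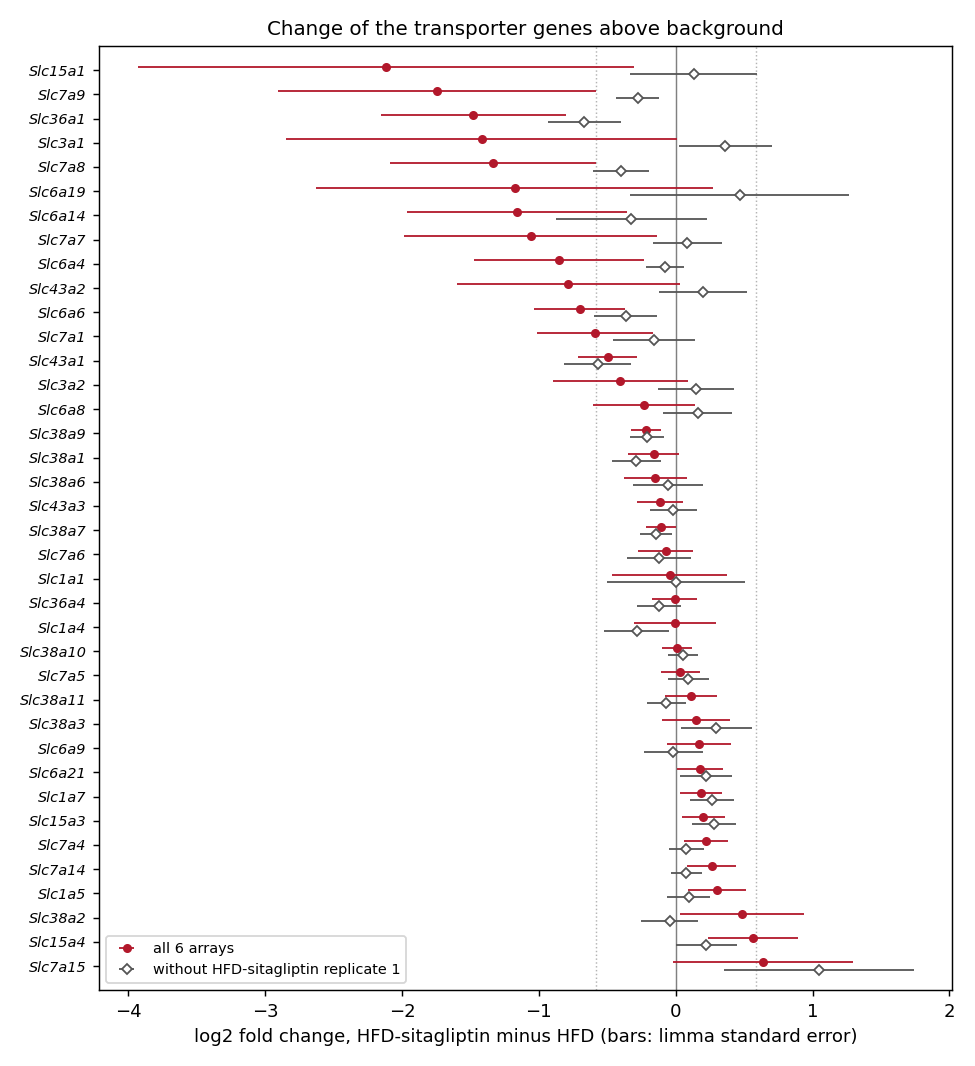
Log2 fold change, HFD-sitagliptin minus HFD, of the 38 transporter genes above background, with all 6 arrays (filled) and without HFD-sitagliptin replicate 1 (open); bars are limma standard errors and dotted lines mark a fold change of 1.5. The filled points of *Slc15a1* (-2.12) down to *Slc7a1* (-0.59) lie left of the dotted line at the left, and of their open points that of *Slc36a1* (-0.67) does.

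Partners of uptake outside the symbol rule, of which *Anpep* and *Dpp4* are also among the brush border markers above, were mostly lowest in HFD-sitagliptin replicate 1. This held for 10 of the 12 measured ones of 17 listed, against 21.2% of all genes. Of these 12, 0 were past the threshold in limma, with 0 at an unadjusted p under 0.05 there and in the methods' t-test, and the median log2 fold change was -0.89 over all arrays and -0.0017 once HFD-sitagliptin replicate 1 was omitted. *Anpep*, the aminopeptidase that frees amino acids from peptides at the brush border, had values of 5.27, 12.14 and 11.84 in HFD-sitagliptin pups and of 12.11, 12.63 and 12.41 in HFD pups. *Mme*, the brush border endopeptidase neprilysin, had values of 4.49, 9.37 and 11.02 in HFD-sitagliptin pups and of 9.53, 10.19 and 10.74 in HFD pups. *Pepd*, a peptidase of the cytosol that splits dipeptides ending in proline, had values of 7.14, 10.56 and 10.17 in HFD-sitagliptin pups and of 9.88, 10.59 and 10.42 in HFD pups. These peptidases were low in HFD-sitagliptin replicate 1 together with the carriers, and so were *Lap3*, *Cndp2*, the target enzyme gene *Dpp4*, the scaffold genes *Pdzk1* and *Nherf1* and the aromatic amino acid carrier *Slc16a10*, each by more than 1 unit. *Slc9a3*, the sodium-proton exchanger that restores the proton gradient PepT1 uses, had values of 9.68, 8.90 and 9.88 in HFD-sitagliptin pups and of 9.43, 9.40 and 9.81 in HFD pups. *Atp1b1*, a subunit of the sodium pump, lay between 11.26 and 11.75 on all 6 arrays. Neither of these ion carriers was low in that array. *Cltrn*, a partner of *Slc6a19* in kidney, was not above background. *Slc6a20a*, an imino acid carrier whose symbol does not match the rule, had values of 6.22, 7.93 and 7.97 in HFD-sitagliptin pups and of 7.07, 7.91 and 7.76 in HFD pups.

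**Figure D5:**
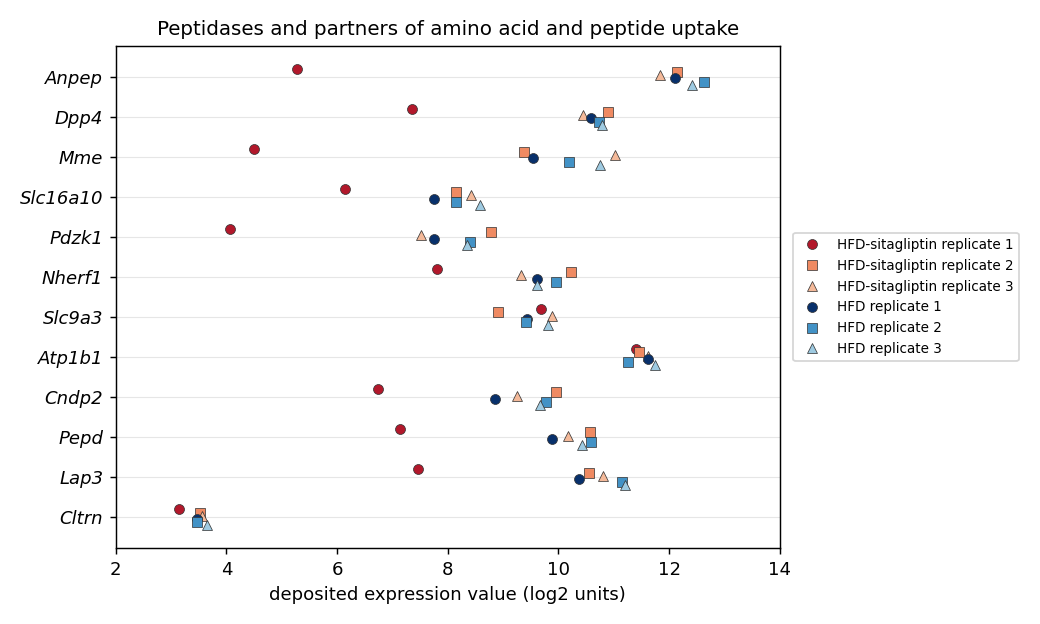
Deposited log2 expression value of 12 peptidases and partners of amino acid and peptide uptake on each array; each point is 1 pup, red tones are HFD-sitagliptin and blue tones HFD. HFD-sitagliptin replicate 1 is far to the left for *Anpep* (5.27), *Dpp4* (7.34) and *Mme* (4.49) and lies among the other arrays for *Slc9a3* (9.68) and *Atp1b1* (11.41).

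The amino acid response of the transcription factor ATF4, which raises *Slc38a2*, *Slc7a11* and other carrier genes when amino acids are scarce, was followed with 16 genes, of which 15 were measured. None was past the threshold in limma or in the methods' t-test, 1 had an unadjusted p under 0.05 by each test, and the median log2 fold change was 0.044. *Psat1*, of serine synthesis, had values of 5.36, 5.25 and 5.39 in HFD-sitagliptin pups and of 5.71, 5.67 and 5.61 in HFD pups. The groups did not overlap, and the log2 fold change was -0.33 (standard error 0.11, limma adjusted p = 0.718), under the fold threshold. *Atf4* itself differed by 0.044 (standard error 0.17) and the asparagine synthetase gene *Asns* by -0.37 (standard error 0.25). In HFD-sitagliptin replicate 1, 4 of the 15 genes were lowest and 4 were highest. *Nupr1*, a stress response gene, was at 9.82 there and at 5.87 to 7.48 in the other arrays, and *Aldh18a1*, of proline synthesis, was at 7.69 there and at 8.91 to 9.79 in the others.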

How the data were processed

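Expression was measured by the authors on Affymetrix GeneChip Rat Gene 2.0 ST arrays, 1 per pup, in 3 HFD-sitagliptin and 3 HFD pups. The deposited values are log2 levels per transcript cluster that the authors normalized in GeneSpring with an algorithm not given in the sources used here. That the scale is log2 follows from the range: were the top value, 13.55, a natural log, its signal would be 765535. RNA was isolated with TRIzol per the paper and with a mirVana kit per the labels. Of 36685 transcript clusters, 18511 carry exactly 1 gene symbol, and per gene the cluster with the highest mean was used, which left 18166 genes. Each transporter gene had 1 such cluster. The arrays have no read depth, and their number limits the precision.

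The limma package, version 3.58.1, under R 4.3.3, fitted the 2 groups without covariates or a filter on low values and moderated the variances, and p values were adjusted over all genes. The fit was tested on simulated data. All members are accounted for. Those given with their values are the ones past the threshold, above background with separate groups, most changed or highest in level, over 2 units outside the other arrays in 1 array, or in the lists of roles. The genes given with values from the lists outside the rule, and those named for the replicate 2 arrays, were chosen after their values were seen. The members and lists were chosen with earlier results of these data known. After subtraction of each group's mean, arrays of the same replicate number correlated across genes at 0.146, 0.284 and 0.148 and other pairs at -0.24 to 0.0201, which led to a blocked fit on these numbers. Neither labels nor paper state a pairing. Other alternatives were the methods' t-test, trend and robust moderation, quantile normalization, centring, a filter on dim genes, averaged clusters, stricter thresholds and omission of each array. Promoters are from RefSeq on GRCr8, matched by gene ID for 47 members. Where a gene had several entries, any entry with the motif was counted. P values set the difference between the groups against the spread between these pups within the groups.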

Additional observations from a re-analysis of the deposited data

How the results depend on the processing

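The number of transporter genes higher at the threshold was 1 with trend and robust moderation, the replicate block, quantile normalization and averaged clusters. It was 0 by the methods' t-test, with arrays centred on their median, with dim genes left out (*Slc38a8* was not tested there), at a fold of at least 2 and at an adjusted p under 0.05, and between 0 and 1 over the fits without 1 array. The number lower was 1, *Slc36a1*, with the replicate block (-1.48) and with arrays centred on their median (-1.54), and 0 under the other settings with all arrays. Over the fits without 1 array it was between 0 and 4, with 4 without HFD-sitagliptin replicate 3, *Slc36a1* without HFD-sitagliptin replicate 1, and *Slc43a1* without HFD-sitagliptin replicate 2 or HFD replicate 3. Over all genes, 365 were past the threshold, 158 by the methods' t-test, 57 at a fold of at least 2 and 0 at an adjusted p under 0.05 in limma, where 1040 had an unadjusted p under 0.05. The replicate block gave 476, and leaving out each array gave 239 (without HFD replicate 1) to 880 (without HFD-sitagliptin replicate 3). The replicate block changed the call of no other transporter gene. Of the genes past the threshold, 128 were higher and 237 lower, against 81 and 390 with arrays centred on their median. The median log2 fold change of the 62 genes, or of the 45 tested with dim genes left out, stayed between -0.041 and 0.052. The cause of these differences was not tested. With 3 arrays a group, the standard error was 0.21 to 1.81 log2 units over the brush border genes and 0.20 to 0.93 over the basolateral genes, and that of *Slc15a1* was 0.47 once HFD-sitagliptin replicate 1 was omitted.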
